A study of Homo sapiens with 6 samples.

Results

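The genes described here make, cut, bind or receive hyaluronan, the long sugar chain that fills the space between connective tissue cells. They comprise 10 genes of the 63129 listed in the expression table, namely KIAA1199 (now called CEMIP), TMEM2 (CEMIP2), HAS1, HAS2, HAS3, HYAL1, HYAL2, HYAL3, CD44 and TNFAIP6. Members were chosen by gene symbol, and where a symbol had more than 1 entry, the entry was selected on the highest mean over the 6 libraries. The 10 symbols had 13 entries, because HYAL1, HYAL2 and HYAL3 each had a further entry, listed at 0 in all 6 libraries. Of the 10 genes, 7 reached a mean of 1 FPKM (fragments per kilobase of transcript, scaled to mapped fragments) and were tested. HYAL3 was the lowest of these, with a mean of 2.21 FPKM, and HAS3 the highest of the remainder, with 0.302 FPKM.

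The RNA came from IMR90 cells, a line of human fetal lung fibroblasts, transduced with a retrovirus encoding oncogenic H-RasV12 fused to the ligand-binding domain of the estrogen receptor, so that tamoxifen switches on Ras signalling. In 3 libraries the ER:RAS cells were left uninduced, and in 3 they had, by the labels, been induced with 100 nM tamoxifen for 4 days. The methods of the study state the inducing dose as 100 ng/ml of 4-hydroxytamoxifen. Both groups were arrested in mitosis with 1 μM dimethylenastron (DME), an inhibitor of the kinesin Eg5, and only the detached mitotic cells were sequenced as poly(A) RNA. The retroviral cells were a transduced population that always carried the fusion gene, so the uninduced cells are a control for tamoxifen and Ras activity together.

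Relative sequencing depth was read from the steps between low FPKM values, since no counts were used here. Against the first uninduced library, the other uninduced libraries had a depth of 0.951 and 1.17. The induced libraries had a depth of 1.13, 0.845 and 0.973 on the same scale. HRAS, to which the fusion construct may add reads, measured 1174, 1176 and 1140 FPKM in uninduced and 1439, 1847 and 1473 FPKM in induced libraries. Of 10 genes known as targets of ERK, the kinase downstream of Ras, 6 rose and 1 fell, where 11.0% of all tested genes rose and 5.67% fell. The phosphatase gene DUSP6 rose most among them, from 3.31, 1.92 and 2.23 FPKM to 39.8, 21.2 and 37.2 FPKM, whereas FOSL1 fell from 304, 258 and 252 FPKM to 130, 102 and 127 FPKM. The rise of HRAS (limma adjusted p = 0.0431, and 0.0193 to 0.166 over 13 alternatives) kept its call in 4 of those 13. The call was lost without any library other than induced library 2, and also with the replicate block (0.0526), after upper-quartile scaling (0.0925), without a trend (0.0612) and with no filter (0.166). The calls of DUSP5 and SPRY4 were lost without uninduced library 2, induced library 1 or induced library 3, that of DUSP5 also without uninduced library 1 and that of SPRY4 also without uninduced library 3. Both were also lost after upper-quartile scaling (0.0555 and 0.0629) and with no filter (0.0894 and 0.119), and that of SPRY4 after quantile normalization (0.0517) and without a trend (0.0586). Adjusted p from limma ranged over 13 alternatives from 0.0159 to 0.107 for DUSP5 and from 0.0193 to 0.125 for SPRY4.

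The labelled cell type and arrest were checked on marker genes. All 10 fibroblast markers passed 1 FPKM, with vimentin (VIM) the most abundant, and their summed level was 5514, 6414 and 6333 FPKM in uninduced and 4193, 5446 and 4094 FPKM in induced libraries. LUM, COL1A2 and THY1 fell (3 of 10, against 5.67% of all tested genes), while the other 7 fibroblast markers did not pass the test. Of those 7, COL1A1 and COL3A1 were lower without overlap (limma adjusted p = 0.0501 and 0.0553). They passed in 6 and 4 of 13 alternatives. FAP was higher without overlap (limma adjusted p = 0.0869) and passed in 1 of 13. The 10 mitotic markers summed to 2107, 2087 and 2149 FPKM without and 1678, 1861 and 1815 FPKM with induction, with CCNB1 the most abundant. Of these 10, 5 fell, against 5.67% of all tested genes, namely CENPF, TPX2, CCNB2, BUB1 and PLK1, and each call was lost without induced library 1, induced library 3 or uninduced library 2. Uninduced library 1 was also needed for TPX2, CCNB2, BUB1 and PLK1, induced library 2 for BUB1 and PLK1, and uninduced library 3 for BUB1. With a library left out, the highest adjusted p from limma was 0.0695 for CENPF, 0.0645 for TPX2, 0.128 for CCNB2, 0.113 for BUB1 and 0.154 for PLK1. Over 13 alternatives the lowest for these genes, in the same order, was 0.0161, 0.00424, 0.00864, 0.0242 and 0.0134. With no filter the calls of CCNB2, BUB1 and PLK1 were lost as well (limma adjusted p = 0.0691, 0.0604 and 0.0742). Of the 13 alternatives, CCNB2 kept its call in 7, BUB1 in 5 and PLK1 in 3. Those of PLK1 were without uninduced library 3, after quantile normalization (0.0142) and after upper-quartile scaling (0.0134). Most markers of other cell types were too low to test, and of those tested TEK fell. Its 5 companions on the endothelial list stayed under 0.5 FPKM, with PECAM1 listed at 0 in every library. That list summed to 16.6, 14.7 and 15.2 FPKM and then 4.94, 5.41 and 4.85 FPKM. The 6 epithelial markers summed to between 23.6 and 38.5 FPKM, mostly from KRT5 and KRT14, with CDH1 at most 0.224 FPKM. EPCAM, under the filter and not tested, measured 1.05, 0.880 and 1.80 FPKM in uninduced and 0.272, 0.167 and 0.424 FPKM in induced libraries, without overlap. Nearly all of the leukocyte signal, 25.4 to 36.1 FPKM, came from CD68, a gene that fibroblasts also express, and CD3E was listed at 0 in all 6 libraries. Mesothelial markers summed to less than 1 FPKM in each library, with CALB2 the most abundant. The part of these marker changes in the results on hyaluronan genes was not tested.

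Hyaluronan is extruded through the plasma membrane by the synthases HAS1, HAS2 and HAS3, which join sugars supplied as UDP-glucuronic acid and UDP-N-acetylglucosamine. Breakdown is shared between KIAA1199, which skin fibroblasts need to depolymerize hyaluronan, the GPI-anchored hyaluronidase HYAL2 and the lysosomal hyaluronidase HYAL1. CD44 is the principal surface receptor, and the secreted protein TNFAIP6 (TSG-6) binds hyaluronan and transfers heavy chains of inter-alpha-inhibitor onto it.

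Across the table, 2336 of 13993 tested genes were altered by induction (adjusted p at or under 0.05 from limma on log2(FPKM + 1)), or 16.7%. Of these, 1543 (11.0% of tested genes) were higher and 793 (5.67%) lower in induced cells. Of the 7 tested members 4 were altered, with TMEM2, HAS2 and TNFAIP6 higher and KIAA1199 lower. In 5 of the 7, CD44 and the 4 altered genes, the 3 induced and 3 uninduced values did not overlap, as was so for 39.9% of all tested genes. The members were listed with earlier results known, the fall of KIAA1199 among them, so these counts describe the genes and carry no support of their own. Over all tested genes the median change was 0.10 log2 units in the deposited values, 0.01 after quantile normalization and 0.00 after upper-quartile scaling. The split of altered genes moved with it, to 1044 higher and 1109 lower after quantile normalization and 921 higher and 1101 lower after upper-quartile scaling.

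**Figure D1:**
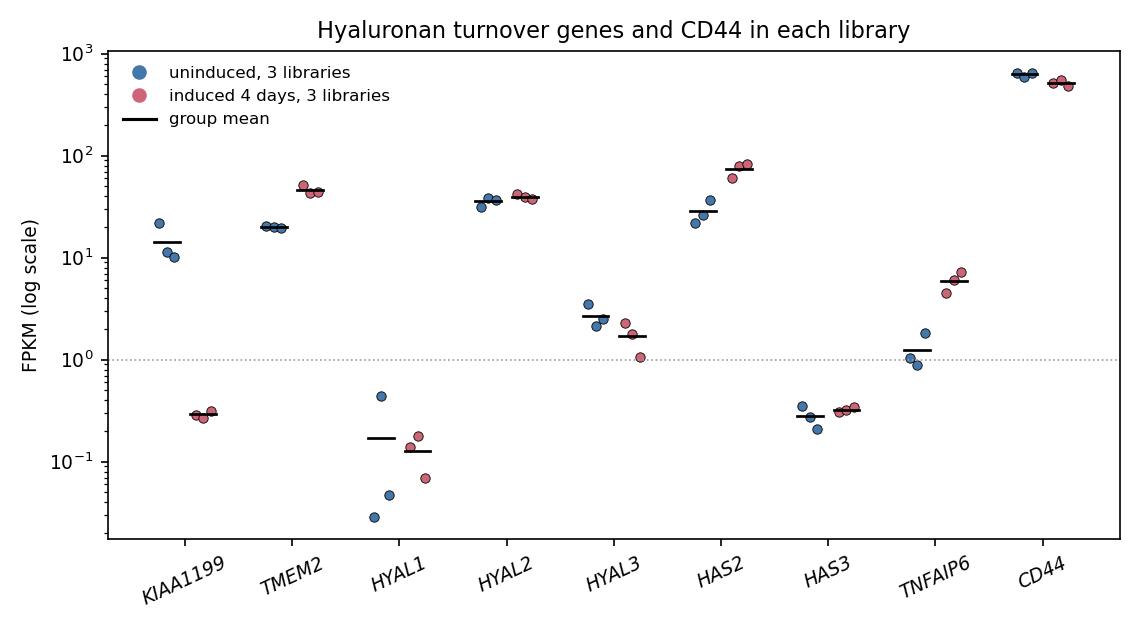
FPKM on a log scale for 9 of the 10 members, a point for each of 3 uninduced (blue) and 3 induced (red) libraries, with black lines at the group means and a dotted line at 1 FPKM. KIAA1199 goes from a mean of 14.4 to 0.292 FPKM, TMEM2, HAS2 and TNFAIP6 lie higher in all 3 induced libraries, and HAS1, listed at 0 throughout, cannot be drawn on this axis.

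KIAA1199 (ENSG00000103888, chr15:81071684-81244117 on the plus strand of GRCh37) measured 21.8, 11.3 and 10.1 FPKM in the 3 uninduced libraries and 0.290, 0.270 and 0.315 FPKM in the 3 induced libraries. Every uninduced library was thus far above every induced library, by at least 32.2-fold between the closest libraries and by 80.6-fold between the most distant. Means were 14.4 ± 6.41 FPKM and 0.292 ± 0.0225 FPKM (SD, n = 3 each), which is 49.4-fold lower with induction. The spread lay in the uninduced cells, where the first library held about as much KIAA1199 as the other 2 together. On the log2(FPKM + 1) scale the change was -3.50 (standard error, SE, 0.27), rank 21 from the lowest of 13993 genes. That scale understates the change of a gene that falls under 1 FPKM, and with a pseudocount of 0.1 it was -5.13 (SE 0.32). No p is given for KIAA1199, and its place among the altered genes is description only, because its fall was known when the genes were listed. In bulk RNA, fewer cells expressing a gene and less of its RNA in each cell cannot be told apart.

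The final 0.292 FPKM of KIAA1199 is close to that of HAS3 in the same libraries, at 0.323 ± 0.0205 FPKM (SD, n = 3). The exons of KIAA1199 share 224 bases with those of MESDC2 on the opposite strand, and the library kit did not mark strand, so reads from the shared stretch cannot be told apart. MESDC2, a chaperone of lipoprotein receptors, measured 23.5, 23.2 and 28.6 FPKM before and 21.4, 22.4 and 22.3 FPKM after induction. The difference in MESDC2 did not pass the test (log2 fold change -0.17, SE 0.10, limma adjusted p = 0.274).

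TMEM2 (ENSG00000135048, chr9:74298282-74431606 on the minus strand of GRCh37) encodes a transmembrane paralog of KIAA1199 that has been described as a cell-surface hyaluronidase, an activity that is debated for the human protein. It measured 20.6, 19.8 and 19.6 FPKM in uninduced libraries and 51.4, 43.2 and 44.5 FPKM in induced libraries. The groups did not overlap, and the coefficient of variation of the uninduced values was 2.53%, against 44.5% for KIAA1199. TMEM2 rose 2.32-fold in mean FPKM, with a log2 fold change of 1.17 (SE 0.09, limma adjusted p = 0.00186, and 0.000837 to 0.00953 over 13 alternatives).

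The paralogs thus moved in opposite directions, and their balance was worked out after the values were seen. KIAA1199 made up 51.4%, 36.3% and 34.1% of the summed FPKM of both genes in uninduced libraries. In induced libraries it made up 0.560%, 0.621% and 0.704%. The sum itself was 34.4 ± 6.91 FPKM (SD, n = 3) in uninduced and 46.7 ± 4.44 FPKM (SD, n = 3) in induced cells, with TMEM2 supplying nearly all of the latter. An FPKM sum counts transcripts and not enzyme activity, which was not measured.

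The HYAL genes lie side by side within 30.0 kb of chromosome 3 (chr3:50330262-50360213 of GRCh37), all on the minus strand. HYAL2 measured 31.2, 38.6 and 37.05 FPKM in uninduced and 42.1, 39.0 and 38.0 FPKM in induced libraries. These ranges overlapped, and the log2 fold change of 0.16 (SE 0.10) did not pass the test (adjusted p = 0.329 from limma). HYAL2 shares 509 exon bases on its own strand with TUSC2, which had 16.8 ± 2.05 and 24.7 ± 4.55 FPKM (SD, n = 3 each). HYAL3, which has little known hyaluronidase activity of its own, measured 3.49, 2.13 and 2.50 FPKM and then 2.30, 1.78 and 1.05 FPKM. Its groups overlapped as well (log2 fold change -0.46, SE 0.24, limma adjusted p = 0.222). It shares 232 exon bases with NAT6 and 43 with IFRD2, so its low values are uncertain. HYAL1 was listed between 0.0289 and 0.437 FPKM over all 6 libraries and was too low to test.

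Of the cluster, HYAL2 carried most of the transcripts, at 92.4 ± 2.19% of the summed HYAL1, HYAL2 and HYAL3 FPKM in uninduced and 95.6 ± 1.35% in induced cells (SD, n = 3 each). The sum was 38.5 ± 3.35 and 41.5 ± 2.72 FPKM (SD, n = 3 each), within the spread of the libraries.

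Promoter sequences are shown for the KIAA1199 and TMEM2 paralogs, which moved apart, and for TNFAIP6, which rose. The sequences are from RefSeq on GRCh38.p14 and run from 250 bases before to 50 bases after the annotated start, 5′ to 3′ on the strand of the gene. KIAA1199 is at chr15:80779120-80779419 on the plus strand, TMEM2 at chr9:71768464-71768763 on the minus strand and TNFAIP6 at chr2:151357342-151357641 on the plus strand. Capitals mark matches on either strand. They were sought for the AP-1 motif, written TGANTCA where N is any base, and for the TATA box, written TATAAA. The GC box was written GGGCGG and the CAAT box was searched as CCAAT.
KIAA1199: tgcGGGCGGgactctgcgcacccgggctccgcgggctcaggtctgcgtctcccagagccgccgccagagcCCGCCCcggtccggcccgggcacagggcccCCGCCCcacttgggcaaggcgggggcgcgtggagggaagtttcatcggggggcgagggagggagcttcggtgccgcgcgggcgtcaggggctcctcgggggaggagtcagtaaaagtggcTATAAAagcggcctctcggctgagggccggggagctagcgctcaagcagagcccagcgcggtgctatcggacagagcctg
TMEM2: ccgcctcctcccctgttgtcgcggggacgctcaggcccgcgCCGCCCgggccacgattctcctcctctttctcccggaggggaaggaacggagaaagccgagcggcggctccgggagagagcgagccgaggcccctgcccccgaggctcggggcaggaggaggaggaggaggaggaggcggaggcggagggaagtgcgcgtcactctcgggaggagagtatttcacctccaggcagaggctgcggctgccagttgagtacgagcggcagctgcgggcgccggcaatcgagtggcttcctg
TNFAIP6: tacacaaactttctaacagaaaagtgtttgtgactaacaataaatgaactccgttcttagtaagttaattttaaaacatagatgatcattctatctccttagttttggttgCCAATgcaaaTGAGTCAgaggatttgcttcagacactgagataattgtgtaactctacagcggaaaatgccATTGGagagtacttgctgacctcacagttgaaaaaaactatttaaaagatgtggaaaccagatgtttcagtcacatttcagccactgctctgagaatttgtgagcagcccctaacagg

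The paralogs had GC-rich starts, with 219 of 300 bases G or C and 32 CpG dinucleotides for KIAA1199 and 212 and 31 for TMEM2. TNFAIP6 had 111 and 2. Over all 27305 promoters of the table the median was 58.3% G or C and 14 CpG dinucleotides. KIAA1199 held a TATA box 30 bases before its start and GC boxes 247, 180 and 150 bases before it. TMEM2 held a GC box 209 bases before its start and no TATA box in this window. TNFAIP6 held the AP-1 motif 129 bases before its start and CAAT boxes 139 and 68 bases before it. No matches overlapped in these windows. Of all promoters, 7.8% held the AP-1 motif, 12.0% the TATA box, 44.6% the GC box and 35.7% the CAAT box. Of the 10 members 9 matched a promoter, and TNFAIP6 was the only 1 of those 9 with the AP-1 motif. HAS2, which also rose, was the member without a promoter sequence, so its motifs are unknown here. A match describes the letters and does not show that a factor binds there.

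**Figure D2:**
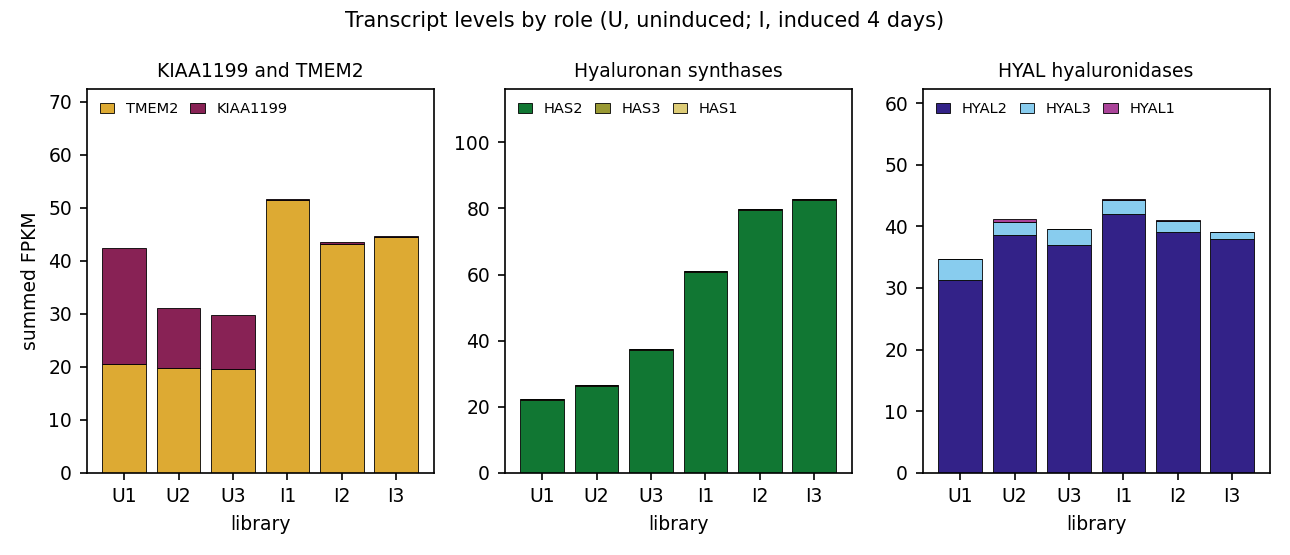
Summed FPKM in each library, stacked by gene, for KIAA1199 and TMEM2 (left), the synthases (middle) and the HYAL genes (right), in uninduced (U1 to U3) and induced (I1 to I3) libraries. KIAA1199 is 34.1% to 51.4% of the left bars without and under 1% with induction, and HAS1 and HAS3 are too low to be seen.

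HAS2 (ENSG00000170961), usually the main synthase of fibroblasts, measured 22.1, 26.4 and 37.2 FPKM in uninduced and 60.8, 79.6 and 82.6 FPKM in induced libraries. The lowest induced library stood 1.63-fold above the highest uninduced library. HAS2 rose 2.60-fold in mean FPKM, from 28.5 ± 7.78 to 74.3 ± 11.9 (SD, n = 3 each), with a log2 fold change of 1.37 (SE 0.21, limma adjusted p = 0.00931, and 0.00529 to 0.0376 over 13 alternatives). HAS1 was listed at 0 in all 6 libraries, which in a table without counts can also be a failed estimate. Of 8868 genes that reached 10 FPKM in some library, 375 (4.23%) were listed at 0 in another. That share covers genes at 0 in only some libraries, so it gives no rate for a gene at 0 in all 6. HAS3 measured 0.355, 0.275 and 0.210 FPKM and then 0.305, 0.320 and 0.345 FPKM, and its groups overlapped. It shares 365 exon bases with CHTF8 on the opposite strand, a gene with a mean of 66.8 ± 4.35 and 78.3 ± 6.01 FPKM (SD, n = 3 each).

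HAS2 made up 98.9 ± 0.510% of the listed synthase FPKM in uninduced and 99.6 ± 0.0530% in induced cells (SD, n = 3 each), shares that take the listed 0 of HAS1 as it stands. The antisense gene HAS2-AS1, named for its overlap with HAS2 after the values were seen, shares 251 exon bases with it on the opposite strand. HAS2-AS1 measured 7.05, 10.7 and 14.2 FPKM in uninduced and 22.7, 22.7 and 24.9 FPKM in induced libraries. It rose along with HAS2 (log2 fold change 1.12, SE 0.22, limma adjusted p = 0.0202, and 0.0110 to 0.0683 over 13 alternatives). Its call was lost without uninduced library 2 or any 1 of the 3 induced libraries, and also with no filter (limma adjusted p = 0.0600). With no strand in the libraries, reads from the shared bases cannot be told apart between HAS2 and HAS2-AS1.

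The ratio of HAS2 to HYAL2 was also computed after the values were seen. HAS2 stood at 0.707, 0.683 and 1.00 times HYAL2 in uninduced libraries and at 1.44, 2.04 and 2.17 times HYAL2 in induced libraries. Against KIAA1199, HAS2 stood at 1.01, 2.34 and 3.67 times without and 210, 295 and 262 times with induction. These ratios describe transcripts per length and not rates of synthesis or breakdown.

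TNFAIP6 (ENSG00000123610, chr2:152214106-152236560 on the plus strand of GRCh37) measured 1.04, 0.886 and 1.82 FPKM in uninduced and 4.51, 6.04 and 7.22 FPKM in induced libraries. Each induced library was at least 2.48-fold above each uninduced library. Mean FPKM rose 4.75-fold, with a log2 fold change of 1.63 (SE 0.22, limma adjusted p = 0.00709, and 0.00505 to 0.0294 over 12 alternatives). The uninduced values were near the filter of 1 FPKM, and with a pseudocount of 0.1 the log2 fold change was 2.20. No exon of another listed gene overlaps TNFAIP6.

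CD44 (ENSG00000026508, chr11:35160429-35253949 on the plus strand of GRCh37) was by far the most abundant member, above 99.2% of tested genes in uninduced and 98.8% in induced cells. It measured 648, 592 and 644 FPKM in uninduced and 514, 555 and 478 FPKM in induced libraries. The groups did not overlap, but the closest libraries differed only by 1.07-fold, and the means by 1.22-fold. The log2 fold change of -0.28 (SE 0.09) missed the threshold in the deposited values (adjusted p = 0.0661 from limma). It passed after quantile normalization (-0.35, adjusted p = 0.0398 from limma) and after upper-quartile scaling (-0.40, adjusted p = 0.0275), within a range of 0.0275 to 0.217 over 13 alternatives. Gene-level FPKM do not separate the splice variants of CD44.

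**Figure D3:**
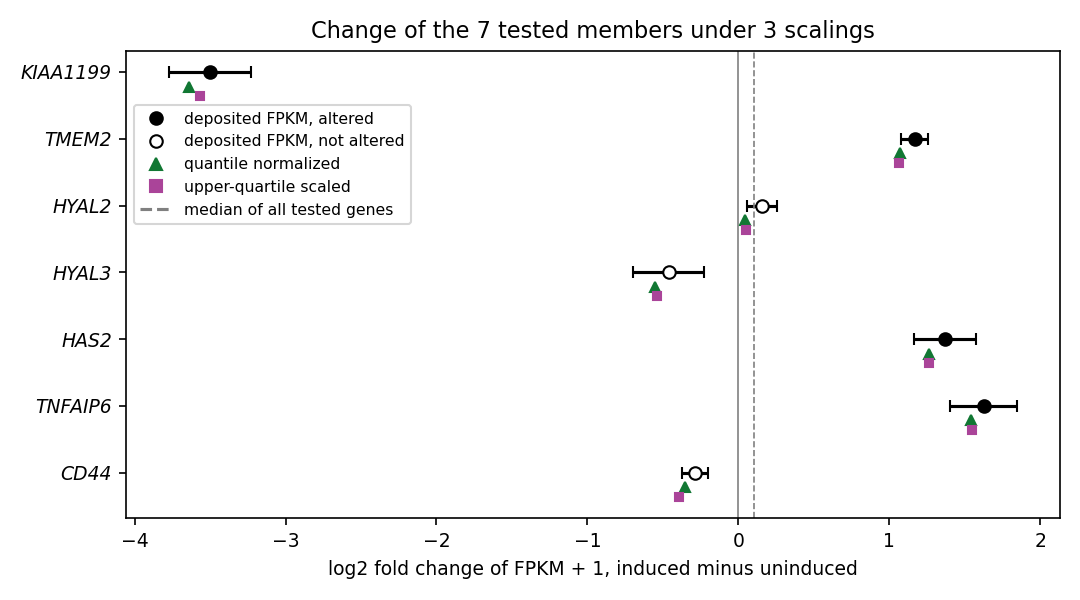
Log2 fold change of FPKM + 1, induced minus uninduced, for the 7 tested members, with standard errors as bars (filled black circles altered, open circles not), and the same after quantile normalization (green) and upper-quartile scaling (purple). KIAA1199 at -3.50 and TNFAIP6 at 1.63 are the extremes, the dashed line is the median of all tested genes at 0.10, and no member changes sign between scalings.

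Within each group the members spanned more than 3 orders of magnitude on the FPKM scale, which is per transcript length. In uninduced cells the order of mean level was CD44, HYAL2, HAS2, TMEM2, KIAA1199, HYAL3, TNFAIP6, HAS3, HYAL1 and HAS1. Neighbours whose ranges overlapped, and so did not differ beyond their spread, were HYAL2 and HAS2, TMEM2 and KIAA1199, and HAS3 and HYAL1. In induced cells the order was CD44, HAS2, TMEM2, HYAL2, TNFAIP6, HYAL3, HAS3, KIAA1199, HYAL1 and HAS1, and only HAS3 and KIAA1199 overlapped. KIAA1199 thus went from rank 5 to rank 8, and TNFAIP6 from rank 7 to rank 5.

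The tested genes with the nearest pattern over the 6 libraries were found by Euclidean distance on centred log2(FPKM + 1). Nearest to KIAA1199 were ACTA2 (distance 1.15), EFEMP1 (1.18), NTN4 (1.19) and CXCL12 (1.24). ACTA2, the smooth muscle actin gene, measured 84.0, 116 and 51.2 FPKM in uninduced and 9.76, 5.84 and 8.14 FPKM in induced libraries. EFEMP1 encodes an extracellular matrix glycoprotein, NTN4 a netrin of basement membranes and CXCL12 a chemokine. Such distances grow with the size of the change, so they are not compared between genes. TMEM2 was nearest to CCDC103 (0.130), SASH1 (0.147), MAML3 (0.155) and ANKRD42 (0.164). SASH1, a scaffold protein gene, followed it in level as well, at 22.2, 19.4 and 18.7 FPKM and then 50.8, 43.4 and 46.8 FPKM. CCDC103 was far lower, at 0.608, 0.537 and 0.389 FPKM and then 2.68, 2.25 and 2.37 FPKM. MAML3 measured 0.901, 1.03 and 1.06 FPKM and then 4.04, 3.09 and 3.51 FPKM. At such levels log2(FPKM + 1) understates a change, so these 2 genes resemble TMEM2 on that scale only. CD44 was nearest to HECTD4 (0.0256), CEP70 (0.0832), TMEM14C (0.106) and SMG9 (0.114).

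Of 50 further genes of the hyaluronan pathway, 31 were tested and 10 were altered, 4 higher and 6 lower, against 16.7% altered among all tested genes. Their median log2 fold change was -0.02, against 0.10 for all tested genes. The number of altered genes moved when a library was left out, to 4 without uninduced library 1 and to 5 without uninduced library 2, induced library 1 or induced library 3. The lists were drawn up with earlier results of these data known, and nothing particular to the pathway is read from the count.

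Of 8 genes that make the UDP-sugar precursors, all were tested and 2 rose, GFPT2 and UGDH, against 11.0% of all tested genes. GFPT2, an isoform of the rate-limiting enzyme of the hexosamine pathway that leads to UDP-N-acetylglucosamine, measured 19.1, 18.6 and 20.2 FPKM in uninduced and 94.2, 91.5 and 104.1 FPKM in induced libraries. Its groups were widely apart, with a 5.01-fold rise in mean FPKM and a log2 fold change of 2.27 (SE 0.08, limma adjusted p = 0.000120, and 3.36e-05 to 0.00240 over 13 alternatives). The paralog GFPT1 measured 36.6 ± 2.96 and 37.7 ± 4.43 FPKM (SD, n = 3 each). By a share computed after the values were seen, GFPT2 went from 34.6 ± 2.31% to 71.9 ± 2.68% (SD, n = 3 each) of the summed GFPT1 and GFPT2 FPKM. UGDH, which makes UDP-glucuronic acid, measured 50.2, 55.0 and 52.6 FPKM before and 76.9, 67.7 and 75.8 FPKM after induction, again without overlap. Its log2 fold change was 0.47 (SE 0.08, limma adjusted p = 0.0135), and the call was lost without uninduced library 1, induced library 1 or induced library 3 (0.0114 to 0.0578 over 13 alternatives). UAP1 and UGP2, the most abundant genes of the list that were not altered, had 132 ± 15.5 and 81.6 ± 4.81 FPKM in uninduced and 131 ± 16.0 and 83.6 ± 2.56 FPKM in induced cells (SD, n = 3 each).

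Among the other hyaluronidases and the lysosomal exoglycosidases that finish the breakdown, 3 of 6 genes were tested and 0 were altered, against 16.7% of all tested genes, which for 3 genes tells nothing about the list. GUSB measured 34.5, 30.1 and 46.2 FPKM and then 24.6, 25.5 and 27.4 FPKM, without overlap, but did not pass the test (limma adjusted p = 0.0817). HYAL4, SPAM1 and HYALP1 were listed at 0 in every library.

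Of 7 other hyaluronan receptors 2 were tested, and both fell, against 5.67% of all tested genes, though neither call held without most single libraries. LAYN, a membrane lectin, measured 34.8, 44.3 and 36.2 FPKM and then 25.9, 26.9 and 19.7 FPKM. HMMR, which also acts at the mitotic spindle, measured 97.3, 98.2 and 135.6 FPKM and then 68.1, 67.1 and 80.1 FPKM. The groups did not overlap for either gene, with log2 fold changes of -0.65 (SE 0.15, limma adjusted p = 0.0309) and -0.60 (SE 0.15, limma adjusted p = 0.0398). LAYN kept its call without induced library 2 and HMMR without uninduced library 3, and each lost it without any other library. Both calls were also lost with no filter (limma adjusted p = 0.0764 and 0.0973), and that of HMMR without a trend (0.0580). Over 13 alternatives the adjusted p from limma was 0.0192 to 0.0896 for LAYN and 0.0173 to 0.111 for HMMR. LYVE1, STAB1, STAB2, TLR2 and TLR4 stayed under 0.2 FPKM in every library, so CD44, LAYN and HMMR were the listed receptors with RNA above the filter.

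Of 15 hyaluronan-binding matrix proteins 4 were tested, and the link protein gene HAPLN3 was altered, against 16.7% of all tested genes. It measured 4.92, 7.29 and 3.30 FPKM in uninduced and 1.495, 2.03 and 1.56 FPKM in induced libraries. The groups did not overlap, and HAPLN3 fell by 1.15 on the log2 scale (SE 0.25, limma adjusted p = 0.0271, and 0.0159 to 0.0842 over 12 alternatives). Its call was kept without uninduced library 3 and lost without any other library, and also with no filter (limma adjusted p = 0.0786). Versican (VCAN), the main proteoglycan partner of hyaluronan in fibroblast matrix, had 80.5 ± 14.1 and 61.1 ± 4.72 FPKM (SD, n = 3 each) without overlap. Its adjusted p from limma was 0.104, with 0.0464 under the replicate block and 0.0464 to 0.240 over 13 alternatives. PTX3, which binds TNFAIP6 and the inter-alpha-inhibitor heavy chains, measured 56.6, 46.6 and 155 FPKM and then 134, 102 and 137 FPKM. Uninduced library 3 lay above all 3 induced values, so the groups overlapped. The limma adjusted p of PTX3 was 0.0110 without that library, against 0.287 with all libraries, and 0.0110 to 0.576 over 13 alternatives. Genes of the heavy chain family (ITIH1 to ITIH5) did not reach a mean of 1 FPKM over the 6 libraries. ITIH4 was the highest of this family, at 1.01 ± 0.232 FPKM in uninduced and 0.540 ± 0.287 FPKM in induced cells (SD, n = 3 each). ITIH1 and ITIH3 were listed at 0 in every library, and ITIH2 measured at most 0.0243 FPKM.

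**Figure D4:**
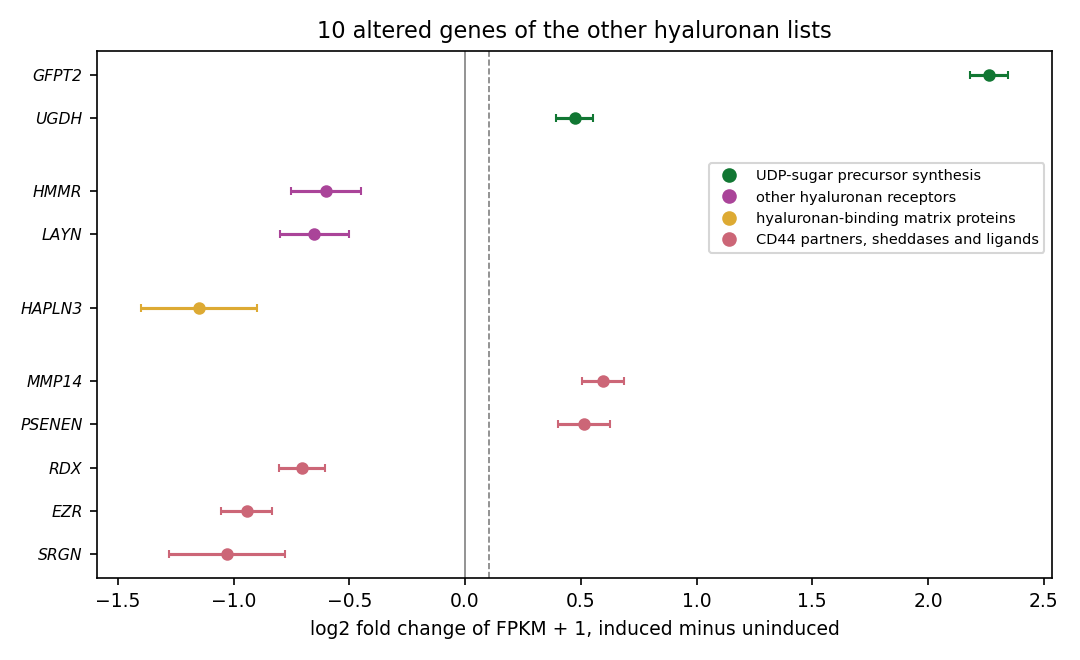
Log2 fold change of FPKM + 1, induced minus uninduced, with standard errors for the 10 altered genes of the other hyaluronan lists, coloured by list. GFPT2 was the largest rise at 2.27 and HAPLN3 the largest fall at -1.15, and the dashed line is the median of all tested genes.

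All 14 genes listed as partners, proteases or ligands of CD44 were tested, and 2 rose and 3 fell, where 11.0% of all tested genes rose and 5.67% fell. Of the ERM proteins that tie the CD44 tail to actin, EZR measured 97.5, 99.1 and 107.5 FPKM in uninduced and 48.3, 48.3 and 60.9 FPKM in induced libraries. RDX, the third fall of this list, measured 79.0, 70.6 and 78.5 FPKM and then 48.3, 41.0 and 49.6 FPKM. Both fell without overlap between groups, EZR by 0.94 (SE 0.11, limma adjusted p = 0.00449) and RDX by 0.71 (SE 0.10, limma adjusted p = 0.00766) on the log2 scale. MSN, the most abundant ERM gene, had 358 ± 23.2 and 295 ± 16.7 FPKM (SD, n = 3 each). Its log2 fold change of -0.28 (SE 0.08) missed the threshold (adjusted p = 0.0663 from limma) and passed after quantile normalization (0.0287) and upper-quartile scaling (0.0206), as did that of CD44, within 0.0206 to 0.198 over 13 alternatives.

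MMP14, a membrane protease that cleaves CD44 from the surface, measured 392, 443 and 399 FPKM in uninduced and 585, 681 and 601 FPKM in induced libraries. It rose without overlap (log2 fold change 0.60, SE 0.09, limma adjusted p = 0.00990, and 0.00345 to 0.0447 over 13 alternatives). PSENEN, a subunit of the gamma-secretase that cuts the remaining stub, had 44.8 ± 3.17 and 64.7 ± 8.56 FPKM (SD, n = 3 each). Its log2 fold change was 0.51 (SE 0.11, limma adjusted p = 0.0282), but its call was lost after both scalings (0.0566 and 0.0664), with the replicate block (0.0519), with no filter (0.0636) and without uninduced library 1, uninduced library 2, induced library 1 or induced library 2 (0.0216 to 0.0912 over 13 alternatives). APH1A, the most abundant gamma-secretase gene of the list, measured 81.6 ± 7.78 and 84.6 ± 4.41 FPKM (SD, n = 3 each). The sheddases ADAM10 and ADAM17 did not pass the test. Serglycin (SRGN), a proteoglycan ligand of CD44, measured 12.2, 9.30 and 14.9 FPKM and then 6.03, 3.53 and 6.99 FPKM. Its groups did not overlap (log2 fold change -1.03, SE 0.25, limma adjusted p = 0.0379), yet leaving out any 1 of the 6 libraries ended the call (0.0535 to 0.102, and 0.0101 to 0.102 over 13 alternatives). With no filter the call of SRGN was lost as well (limma adjusted p = 0.101). The ligand gene SPP1 went the other way at low levels, from 0.302, 0.475 and 0.320 FPKM to 1.35, 3.09 and 1.20 FPKM, without overlap. It missed the threshold (log2 fold change 1.02, SE 0.28, limma adjusted p = 0.0545) and passed in 2 of 11 alternatives.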

How the data were processed

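Poly(A) RNA of DME-arrested ER:RAS cells was sequenced in 3 uninduced and 3 induced libraries, with a kit that does not mark strand. Per the labels and the methods of the study, the authors trimmed reads with Trim Galore 0.3.0, aligned them to hg19 with TopHat2 using Ensembl build 73, and deposited FPKM per gene and library from Cufflinks. Cuffdiff results were also deposited (FPKM per group, fold changes and p-values of the authors' own comparison) and were not used here. The FPKM table has 63129 genes. Of these, 120 had more than 6 values and were left out, with none of the listed genes among them, and 1 repeated header line was dropped. A further 18 columns without a name were not used. Columns give the group and a number but not the sample. The methods describe independently repeated experiments, but nothing ties a column to a culture, so p-values measure the spread between these libraries.

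The 13993 genes averaging 1 FPKM or more were fitted on log2(FPKM + 1) with limma 3.58.1 (mean-variance trend, R 4.3.3), uninduced against induced, two-sided, with Benjamini-Hochberg adjustment over all tested genes. Genes at an adjusted p of 0.05 or less were called altered. The procedure was tested on simulated data. An exact permutation of 3 against 3 libraries cannot go below p = 0.1 and was not used. No read counts were used here, so absolute depth is unknown. Gene positions and overlaps are from GENCODE 44 lifted to GRCh37. Python 3.11.15 (pandas 2.3.3, numpy 2.4.6, matplotlib 3.10.9) made tables and plots.

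Members and gene lists were chosen with earlier results of these data known. Named genes are the 10 members, and, from each other list, up to 2 altered genes per direction with the greatest change and up to 2 of the most abundant genes not altered, some of which are not shown. HRAS, the ERK targets, the altered markers and the 4 genes nearest to KIAA1199, TMEM2 and CD44 were added. RDX, GUSB, ITIH4, GFPT1, ADAM10, ADAM17, COL1A1, COL3A1, FAP, SPP1 and HAPLN1 were named after their values were seen. So were listed genes near 0 and genes sharing exon bases with members. Alternatives were a pseudocount of 0.1, no filter, a mean of at least 5 FPKM, quantile normalization, upper-quartile scaling, no trend, a replicate block, each library left out, a call that also needs a change of 1 log2 unit or more, and summing all entries of a symbol.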

Additional observations from a re-analysis of the deposited data

How the results depend on the processing

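TMEM2, HAS2 and TNFAIP6 were altered in the same direction under every alternative in which they were tested. A mean of at least 5 FPKM removed TNFAIP6 and HYAL3 from the test. CD44 passed the threshold only after quantile normalization (log2 fold change -0.35) and upper-quartile scaling (-0.40), and the cause was not tested. Summing all entries of a symbol changed no value. Across the table, 1518 genes were altered without a filter, 548 when a change of 1 log2 unit or more was needed as well, and between 998 and 1956 when a library was left out. Fewer libraries, a larger number of tested genes and a stricter call are part of how these alternatives are built. Of the other hyaluronan pathway genes, 5 were altered without a filter, 3 under the stricter call, and 4 to 9 with a library left out. Same-numbered libraries of the groups hardly deviated together, with correlations across genes of -0.00266 to 0.0481, against -0.0679 to 0.0311 for differently numbered ones. Values this small do not exclude a pairing, but the number was not taken as one. Fitting the replicate block gave 2310 altered genes (1466 up, 844 down), the members' count stayed at 4 and that of the other pathway genes was 11. For HRAS, the 10 ERK targets and 17 genes of the other hyaluronan lists, without markers, RDX or genes that overlap members, there were 362 combinations of gene and alternative. Of these, 295 kept their side of the threshold, 60 lost a call, 7 gained one and 0 reversed. Of 28 group means of members after rescaling, 3 moved by more than the SD between libraries. HAS3 and HYAL1 were too low to compare, and whether the 0 of HAS1 is a failed estimate was not tested.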
